A study of Bos taurus with 4 samples.

Results

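The genes described here are 4 receptors for fibroblast growth factors (FGFR1, FGFR2, FGFR3 and FGFR4), the bone morphogenetic protein ligand BMP4, the BMP receptors BMPR1A and BMPR2, and the SMAD proteins SMAD1, SMAD4 and SMAD5 that carry BMP signals to the nucleus. They were chosen by name, and every probe whose platform gene symbol was one of the 10 was taken, which gave 19 of the 43794 probes on a bovine 2-colour oligonucleotide array. Those probes stand for 10 of the 15216 genes that had a named probe. Of the 10 genes 7 had a tested probe, and 6 had one above background in at least 3 samples at each age. In 1 of the 7, SMAD1, the comparison between ages passed the test across genes.

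The study asked how the age of the oocyte donor around puberty bears on gene expression in the embryo. RNA was measured in early blastocysts of Holstein cattle, made by maturation, fertilisation and culture in vitro and taken 168 h after fertilisation, from 4 heifers whose oocytes had been collected at 8 and again at 14 months of age. At both ages the heifers had received progesterone, aspiration of the dominant follicle and 6 injections of 30 mg FSH at 12 h intervals, and semen of a single bull had been used throughout, per the labels. Each array held the embryos of 1 heifer at both ages, so each array gave 1 ratio of 8 over 14 months. The embryos of a heifer at one age were pooled before extraction, and their RNA was amplified in 2 rounds. Every heifer was younger at the first collection than at the second, so age and order of collection cannot be told apart. A pool of whole embryos gives a bulk level, in which fewer cells of a type and less RNA per cell cannot be told apart.

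FGF receptors are tyrosine kinases that pass a ligand signal through RAS and MAP kinases. In the mouse blastocyst, FGF4 from the epiblast acts on FGFR1 and FGFR2 and drives part of the inner cell mass towards primitive endoderm, and in bovine embryos added FGF4 moves the inner cell mass the same way. BMP4 binds a complex of type 1 receptors such as BMPR1A and the type 2 receptor BMPR2. The active receptor phosphorylates SMAD1 and SMAD5, which bind SMAD4 and regulate genes such as those of the ID family.

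The 8-month embryos carried Cy5 and the 14-month embryos Cy3 on the arrays of heifers 1 and 2, and the labels were swapped for heifers 3 and 4. Probes above the negative controls made up 36.5% to 44.5% of the array in the 8-month channels and 26.7% to 51.1% in the 14-month channels. A probe was called above background where its scanner intensity was over the mean plus 2 SD of the negative control spots of the same array and channel. That limit was 266.3 to 334.3 scanner units in the 8-month channels and 104.8 to 231.6 in the 14-month channels, so it was higher at 8 months on every array, in either dye. The ratios of heifers 1 and 2 correlated at r = 0.609 across tested probes and those of heifers 3 and 4 at 0.391. Between heifers of opposite dye orientation r was 0.00186 to 0.125. These correlations are across probes, which are not independent replicates.

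A probe was tested where, at either age, 3 or more of the 4 samples exceeded the limit. Of the 19 probes 11 met this, and 6 of them were above background in all 8 samples. The other 8 probes were not tested, 5 of them because no sample was above background. FGFR1, FGFR3 and SMAD5 had no tested probe. No sample was above background for SMAD5 on its single probe. FGFR3, on its single probe, was above background in 1 sample, the 8-month embryos of heifer 3. For FGFR1 one probe was above it in 1 sample at 8 months and 2 at 14 months and the second probe in none. For these 3 genes the array gives no level, only that their signal was not well above background in these embryos.

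SMAD1, one of the SMADs that BMP receptors phosphorylate, was lower in the 8-month embryos and was the member that passed. It was read by 1 probe (EMBV3_40789). The log2 ratio of 8 over 14 months was -0.93 in heifer 1, -0.34 in heifer 2, -0.43 in heifer 3 and -0.46 in heifer 4. The ratio was thus below 0 in every heifer and in both dye orientations, with heifer 1 lowest. The normalised log2 intensities were 10.53, 11.61, 11.64 and 12.20 at 8 months and 11.46, 11.94, 12.07 and 12.66 at 14 months, in heifers 1 to 4. The 2 age groups overlapped, and the spread over heifers was an SD of 0.70 at 8 and 0.49 at 14 months. Scanner intensities were 1448 to 4868 at 8 months and 2908 to 5512 at 14 months, far above the background limits.

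The fitted SMAD1 ratio was -0.54 ± 0.12 (SE, n = 4 heifers, 95% interval -0.81 to -0.27), a level 1.45-fold higher at 14 months. With 1 probe per gene, limma gave an adjusted p of 0.0455 across 8386 genes, and SMAD1 ranked 311 by p. In the fit across all 17653 tested probes the same probe had an adjusted p of 0.0623 and did not pass. SMAD1 missed the threshold when any single heifer was left out, with adjusted p of 0.0727 to 0.256, and the ratio then ran from -0.69 to -0.39. In the authors' deposited table the SMAD1 log2 ratios of 8 over 14 months, with the sign set by the dye labels, were -0.87, -0.26, -0.50 and -0.44 in heifers 1 to 4.

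**Figure D1:**
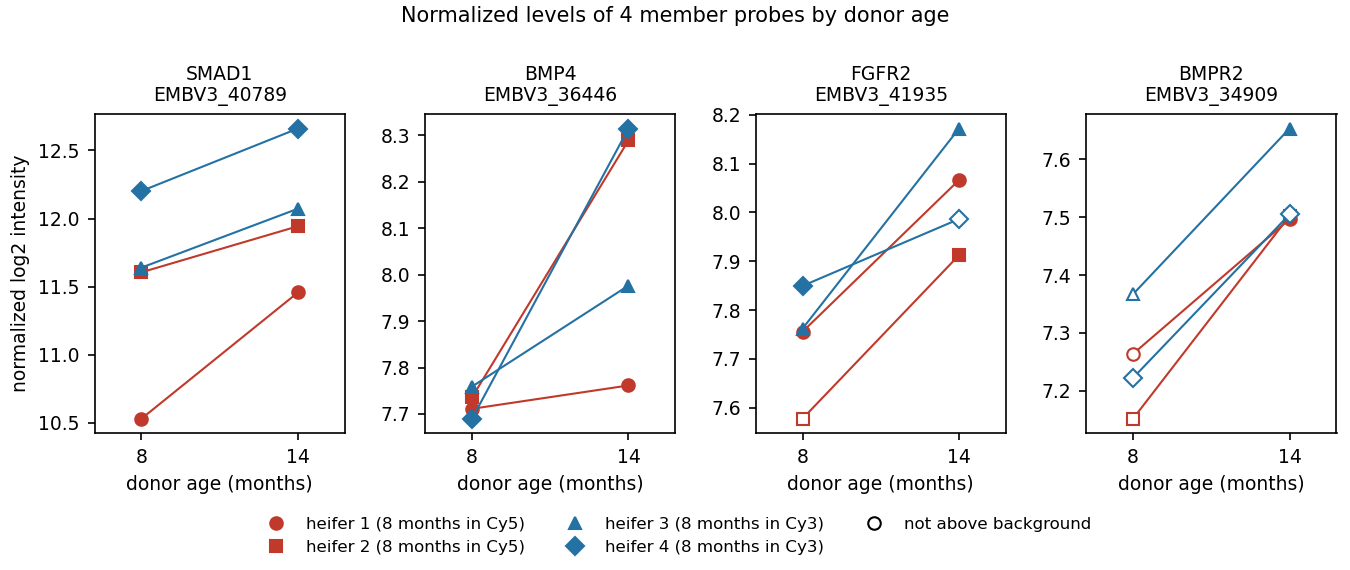
Normalised log2 intensity (vertical axes, a separate scale for each probe) against donor age in months for the SMAD1, BMP4, FGFR2 and BMPR2 probes, with a line joining both ages of a heifer, red where 8-month embryos were in Cy5 and blue where in Cy3, and open symbols for samples not above background. Every line runs upward from 8 to 14 months, for SMAD1 from 10.53 to 11.46 in heifer 1, and all 8-month symbols of BMPR2 are open.

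BMP4, the ligand of the group, was read by 1 probe (EMBV3_36446) near the background limit, and its level at 8 months was below that at 14 months in each heifer. Its log2 ratio was -0.05 in heifer 1, -0.55 in heifer 2, -0.22 in heifer 3 and -0.63 in heifer 4. In the authors' deposited table heifer 1 was not below 0, with ratios of 0.00016, -0.53, -0.21 and -0.68 in heifers 1 to 4. The normalised log2 levels were 7.71, 7.74, 7.76 and 7.69 at 8 months and 7.76, 8.29, 7.98 and 8.32 at 14 months. The 4 values at 8 months lay within a narrow band (SD 0.03) below all 4 values at 14 months (SD 0.27), so the groups did not overlap. They came very close, at 7.7590 in heifer 3 at 8 months and 7.7615 in heifer 1 at 14 months. The scanner values at 8 months were 279, 279, 327 and 357, just over limits of 268.7, 266.3, 280.2 and 334.3. The fitted ratio was -0.36 ± 0.12 (SE, n = 4, 95% interval -0.64 to -0.08), with an adjusted p of 0.112 across genes in limma, so BMP4 did not pass.

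BMPR1A, a type 1 receptor for BMP4, had 2 tested probes, and the heifers fell on both sides of 0 on each. On the brighter probe (EMBV3_37450) the log2 ratios were -0.13, 0.23, -0.30 and -0.56 in heifers 1 to 4, and on the other (EMBV3_38955) they were 0.07, 0.47, -0.48 and -0.59. On both probes heifer 2 was the highest and heifers 3 and 4 were the lowest. The fitted ratios were -0.19 ± 0.11 (95% interval -0.44 to 0.06) and -0.13 ± 0.11 (-0.38 to 0.12), with n = 4 for both. Limma's adjusted p was 0.283 across genes for the brighter probe and 0.450 across probes for the other, so neither passed. Another BMPR1A probe (EMBV3_05785) was above background in no sample.

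BMPR2, the type 2 receptor that joins BMPR1A in the complex, was measured by 3 probes, of which 1 was tested. That probe (EMBV3_34909) exceeded the limit in no 8-month sample and in 3 of the 14-month samples. Its log2 ratios were -0.23, -0.35, -0.29 and -0.28 in heifers 1 to 4, with the smallest spread over heifers of the 11 tested member probes (SD 0.05). Since no 8-month sample was above background, the 8-month level was not measured, and no fold is given. The log2 means of the signals were 7.25 at 8 and 7.54 at 14 months. Limma's adjusted p was 0.107 across genes, so the difference did not pass. A second BMPR2 probe, above background in 0 and 2 samples, had ratios from -0.83 to 0.43. The third was above it in none and had ratios from -0.11 to 0.07.

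SMAD4, the partner shared by BMP and TGF-beta signalling, passed on none of its 3 tested probes, and on 2 of them the sign followed the dye orientation. On the brightest (EMBV3_24296) the log2 ratios were 0.26, 0.41, -0.28 and -0.11 in heifers 1 to 4. The second (EMBV3_36471) gave 0.47, 0.23, -0.12 and -0.21. On both, heifers 1 and 2 were above 0 and heifers 3 and 4 below it. The fitted ratios were 0.07 ± 0.10 (95% interval -0.15 to 0.30, limma's adjusted p = 0.666 across genes, n = 4) and 0.09 ± 0.10 (-0.14 to 0.32, adjusted p = 0.572 across probes). The third probe (EMBV3_34652) was above background in no 8-month sample and gave the opposite order, with -0.37, -0.36, -0.14 and 0.21 (adjusted p = 0.331 across probes). The probes of SMAD4 therefore disagreed in sign. SMAD5, whose protein acts beside SMAD1, had ratios of 0.08, 0.42, -0.06 and 0.02 between signals that were not well above background.

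FGFR2 had the most even ratios of the FGF receptors tested and did not pass. Its tested probe (EMBV3_41935) gave log2 ratios of -0.31, -0.34, -0.41 and -0.14 in heifers 1 to 4. The normalised log2 levels were 7.76, 7.58, 7.76 and 7.85 at 8 months and 8.07, 7.91, 8.17 and 7.99 at 14 months. All 4 levels at 8 months lay below all 4 at 14 months, and the ratio was below 0 in both dye orientations. The scanner values at 8 months were 277, 257, 325 and 386, and the second of these was under its background limit of 266.3. At 14 months heifer 4 was under its limit. The fitted ratio was -0.30 ± 0.10 (SE, n = 4, 95% interval -0.53 to -0.07), a level 1.23-fold higher at 14 months. Limma's adjusted p was 0.110 across genes. The second FGFR2 probe was above background in no sample, with ratios of -0.09, -0.19, 0.06 and 0.27, so the lower level at 8 months rests on a single dim probe.

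FGFR4, a receptor of the same family, had 2 probes above background in all 8 samples, and they gave different pictures. The first (EMBV3_33021) had log2 ratios of 0.12, -0.48, -0.14 and -0.38 in heifers 1 to 4 and a fitted ratio of -0.22 ± 0.12 (95% interval -0.50 to 0.07, n = 4, limma's adjusted p = 0.285 across genes). The second (EMBV3_39408) had -0.31, -0.38, 0.38 and 0.32, so its sign followed the dye orientation, and its fitted ratio was 0.0023 ± 0.09 (-0.21 to 0.22, adjusted p = 0.989 across probes). FGFR1, the other receptor of the mouse inner cell mass, had ratios of 0.02, 0.13, 0.09 and -0.17 on its less dim probe. FGFR3 had ratios of -0.02, 0.19, 0.26 and 0.26. Neither was tested.

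**Figure D2:**
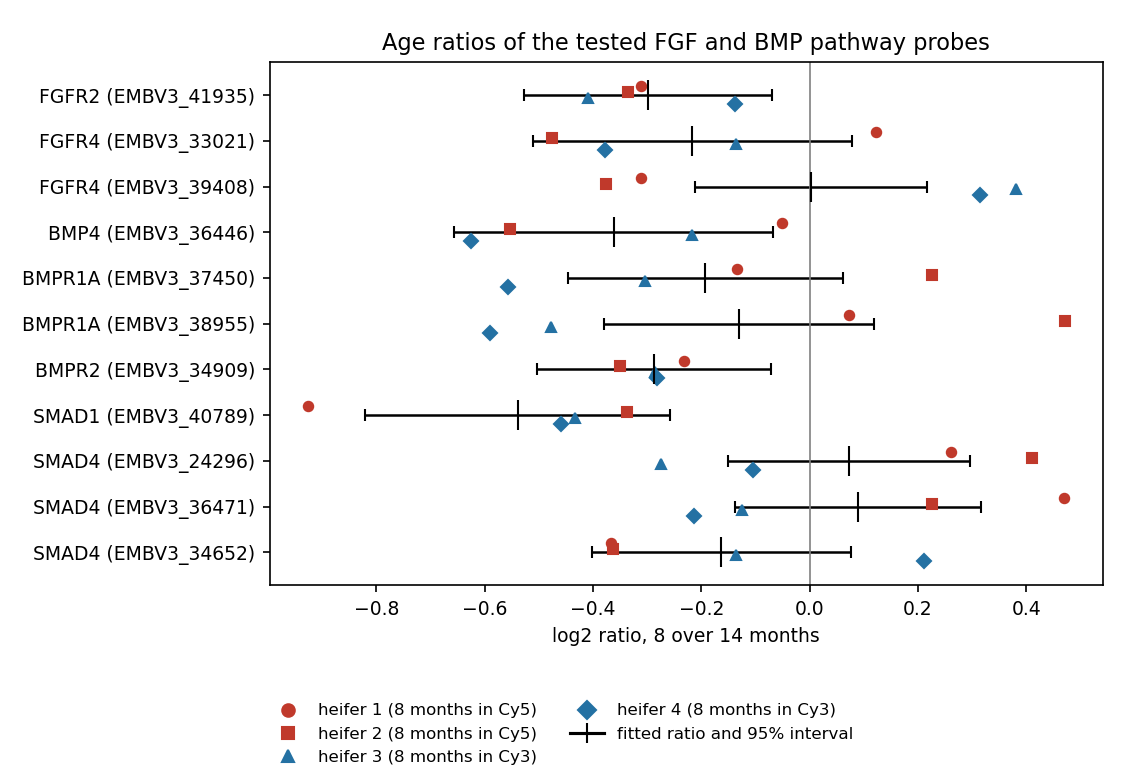
Log2 ratio of 8 over 14 months (horizontal axis) of each of the 11 tested member probes in the 4 heifers, red where 8-month embryos were in Cy5 and blue where in Cy3, with the fitted ratio over all tested probes and its 95% interval as a black bar. SMAD1, FGFR2, BMP4 and BMPR2 have all 4 heifers below 0, and the probes of BMPR1A, FGFR4 and SMAD4 have heifers on both sides.

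Across the array, limma's test found 382 of 17653 tested probes past an adjusted p of 0.05 (2.16%), of which 112 had the higher level at 8 months and 270 the lower. Of the 11 tested member probes 0 passed. An unadjusted p under 0.05 with the lower level at 8 months was found for 4 of the 11, SMAD1, FGFR2, BMP4 and BMPR2, beside 15.6% of all tested probes. BMPR2 entered the test only through its 14-month samples. Of the 9 member probes above background in at least 3 samples at both ages, 3 had such a p, beside 14.5% of the 14453 probes of that kind. With 1 probe per gene, 383 of 8386 genes passed (4.57%), with 145 higher in the younger donors' embryos and 238 lower, and 1 of the 7 tested members was among them. A single call among 7 is no result about the members as a group. Centring each array on its median, in place of loess, turned the split over genes to 39 higher and 2034 lower and moved the median of all genes to -0.18.

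Among the 9 member probes measured at both ages the fitted log2 ratio was below 0 in 6 and above it in 3. Their median was -0.19, beside 0.0053 over the 14453 probes. The other 2 tested member probes, 1 of BMPR2 and 1 of SMAD4, entered only because they were above background at 14 months, and both were below 0. Of the 9 measured at both ages, 3 (SMAD1, FGFR2 and BMP4) were below 0 in all 4 heifers, where 14.0% of the 14453 such probes were. In the authors' deposited table BMP4 was not below 0 in heifer 1. Levels that did not overlap between the ages were found for 2 of the 9 (FGFR2 and BMP4), where 2.56% of the 14453 probes had all 8-month levels below all 14-month levels. These shares describe probes picked by gene name and carry no test. An exact sign-flip test over 4 heifers cannot go below a two-sided p of 0.125, so no member could pass such a test on its own. FGFR2, BMP4 and BMPR2 were read near background limits that were higher at 8 months on each array, and the part of that difference in their ratios was not tested.

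The tested members also differed in how they behaved between the dye orientations. The mean ratio of heifers 1 and 2 and that of heifers 3 and 4 had opposite signs in 6 of the 11 member probes, against 43.8% of all tested probes. These were 1 probe of FGFR4, both of BMPR1A and all 3 of SMAD4. The dye term had an unadjusted p under 0.05 in 4 of the 11 member probes, beside 19.0% of all tested probes. After adjustment it passed in 0 of the 4 and in 18 of the 17653 tested probes. For the less bright probes of BMPR1A and FGFR4 the adjusted p of the dye term in limma was 0.142. Heifers and orientations share this split, so a dye effect and a difference between these pairs of heifers cannot be told apart. The SE of the age ratio leaves that difference out. For the less bright BMPR1A probe that SE was 0.11, and the SD over the 4 heifers was 0.49.

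**Figure D3:**
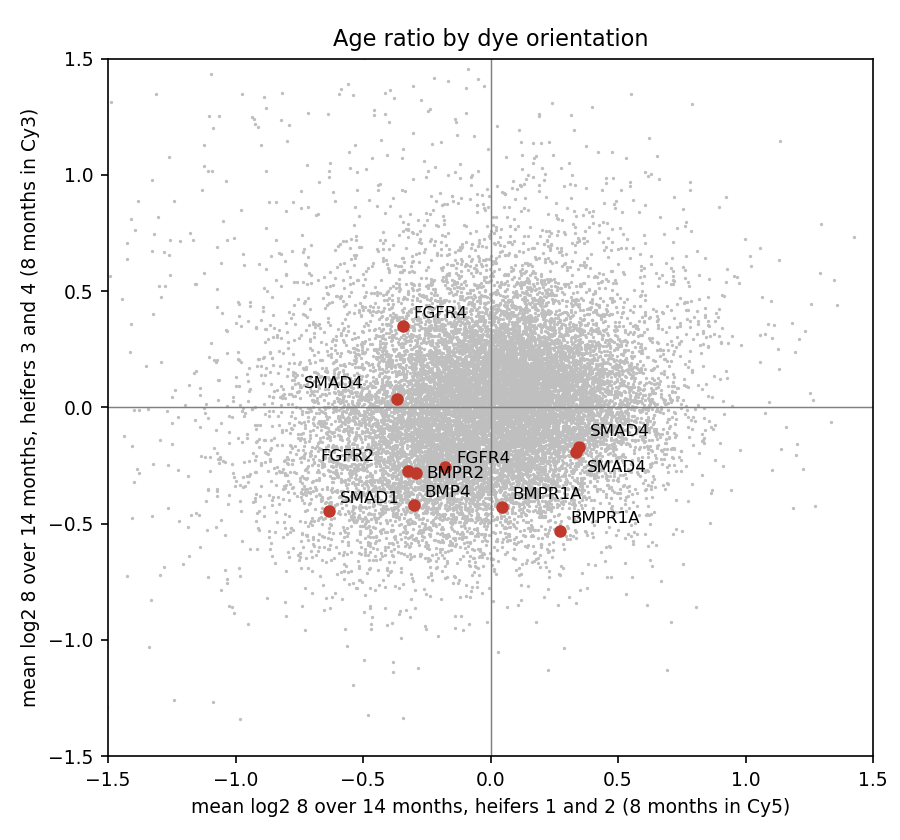
Mean log2 ratio of 8 over 14 months in heifers 1 and 2 (horizontal axis, 8-month embryos in Cy5) against that in heifers 3 and 4 (vertical axis, 8-month embryos in Cy3), with tested probes in grey, 58 of them beyond the axes, and the 11 member probes in red. SMAD1, FGFR2, BMP4, BMPR2 and 1 FGFR4 probe lie where both means are below 0, SMAD1 at -0.63 and -0.45, and the probes of SMAD4 and BMPR1A and the other FGFR4 probe lie where the signs differ.

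The rest of the pathways was described through lists of 130 other genes, of which 116 had a probe and 50 were tested. In these lists 1 gene was higher at 8 months, 2 were lower, and 47 did not pass, where 4.57% of all 8386 tested genes passed. So few calls are no result about the pathways as a group. MAP2K2, which encodes a MAP kinase kinase downstream of FGF receptors, was higher at 8 months, with log2 ratios of 0.98, 0.45, 0.39 and 0.78 in heifers 1 to 4 and a fitted ratio of 0.65 ± 0.12 (limma's adjusted p = 0.0363 across genes). ACVR1B, a type 1 receptor for activin and nodal, was lower, with -0.73, -1.29, -0.42 and -0.15 and a fitted ratio of -0.65 ± 0.12 (adjusted p = 0.0353). TWSG1, a secreted protein that binds BMPs and modulates their action, was lower, with -0.45, -0.56, -0.37 and -0.50 and a fitted ratio of -0.47 ± 0.10 (adjusted p = 0.039). The sign was the same in all 4 heifers for each of these 3 genes. In the fit across all probes they had adjusted p of 0.0523, 0.0502 and 0.053 and did not pass. Leaving out any single heifer ended the call across genes for MAP2K2 and TWSG1, with adjusted p of 0.0609 to 0.245 and 0.0744 to 0.231, and for ACVR1B leaving out heifer 1, 2 or 3 did (0.0913 to 0.231). MAP2K2 also missed the threshold with median centring, at 0.37 (adjusted p = 0.0881).

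On the FGF side, 2 of 18 ligands were tested and neither passed, with ratios of 0.21 for FGF8 and 0.14 for FGF5. FGF8 entered the test only through its 8-month samples, with 4 above background at 8 months and 1 at 14 months. FGF4, the ligand known from the mouse inner cell mass, was above background in no sample, and neither was FGF2. Of 11 tested genes of signal transduction, MAP2K2 alone passed. ARAF, a RAF kinase, had a ratio of -0.41 ± 0.10 and an adjusted p of 0.0568 in limma. Its mean was -0.82 in heifers 1 and 2 and 0.0089 in heifers 3 and 4. Of 9 tested feedback regulators and targets 0 passed. ETV1, an ETS factor induced by FGF signalling, had a ratio of 0.39 ± 0.15 (adjusted p = 0.132), and SPRY2, a feedback inhibitor, had 0.21 ± 0.10 (adjusted p = 0.226). SPRY2 was at 0.47 in heifers 1 and 2 and -0.05 in heifers 3 and 4.

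On the BMP side, 0 of 5 tested ligands passed. BMP7 stood at 0.39 ± 0.13 (limma's adjusted p = 0.0991) and BMP2 at -0.23 ± 0.11 (adjusted p = 0.232), opposite in sign to each other. Among 5 other receptors of the superfamily, ACVR1B passed, and ACVR1, a type 1 BMP receptor, had -0.27 ± 0.10 (adjusted p = 0.130). ACVR1 was at -0.53 in heifers 1 and 2 and -0.0090 in heifers 3 and 4. Of 4 other SMADs 0 passed. SMAD6, an inhibitory SMAD induced by BMP signalling, exceeded the limit in no 8-month sample and in 3 of the 14-month samples. Its 8-month level was thus not measured, and the fitted ratio between the signals was -0.53 ± 0.14 (adjusted p = 0.0632). SMAD9, a receptor SMAD like SMAD1, had 0.14 ± 0.10 (adjusted p = 0.379), with 0.30 in heifers 1 and 2 and -0.02 in heifers 3 and 4.

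Of 4 tested BMP antagonists and decoys, TWSG1 passed, and BAMBI, a receptor decoy, had -0.41 ± 0.10 (limma's adjusted p = 0.0534). A second tested BAMBI probe (EMBV3_35089) was at -0.10 ± 0.09, with heifer 1 at 0.07 (adjusted p = 0.497 across probes). Of 7 tested SMAD regulators and partners 0 passed. TRIM33, a ligase that acts on SMAD4, had 0.48 ± 0.12 (adjusted p = 0.0587), and PPM1A, a SMAD phosphatase, had 0.42 ± 0.12 (adjusted p = 0.0689). Of 3 tested BMP target genes 0 passed, with MSX2 at -0.20 ± 0.10 (adjusted p = 0.220), ID2 at -0.04 and MSX1 at 0.18 ± 0.10 (adjusted p = 0.253). MSX2 was at -0.43 in heifers 1 and 2 and 0.02 in heifers 3 and 4. Of the rest of the ID family, ID1 and ID3 had no tested probe and ID4 had no probe. The median ratio by list was 0.17 for FGF ligands, 0.11 for FGF signal transduction, 0.09 for feedback and targets, 0.07 for BMP and related ligands, -0.20 for other receptors, 0.03 for other SMADs, -0.30 for antagonists, 0.0075 for SMAD regulators and -0.04 for BMP targets. It was 0.05 over the 50 genes of these lists and -0.0037 over all tested genes.

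**Figure D4:**
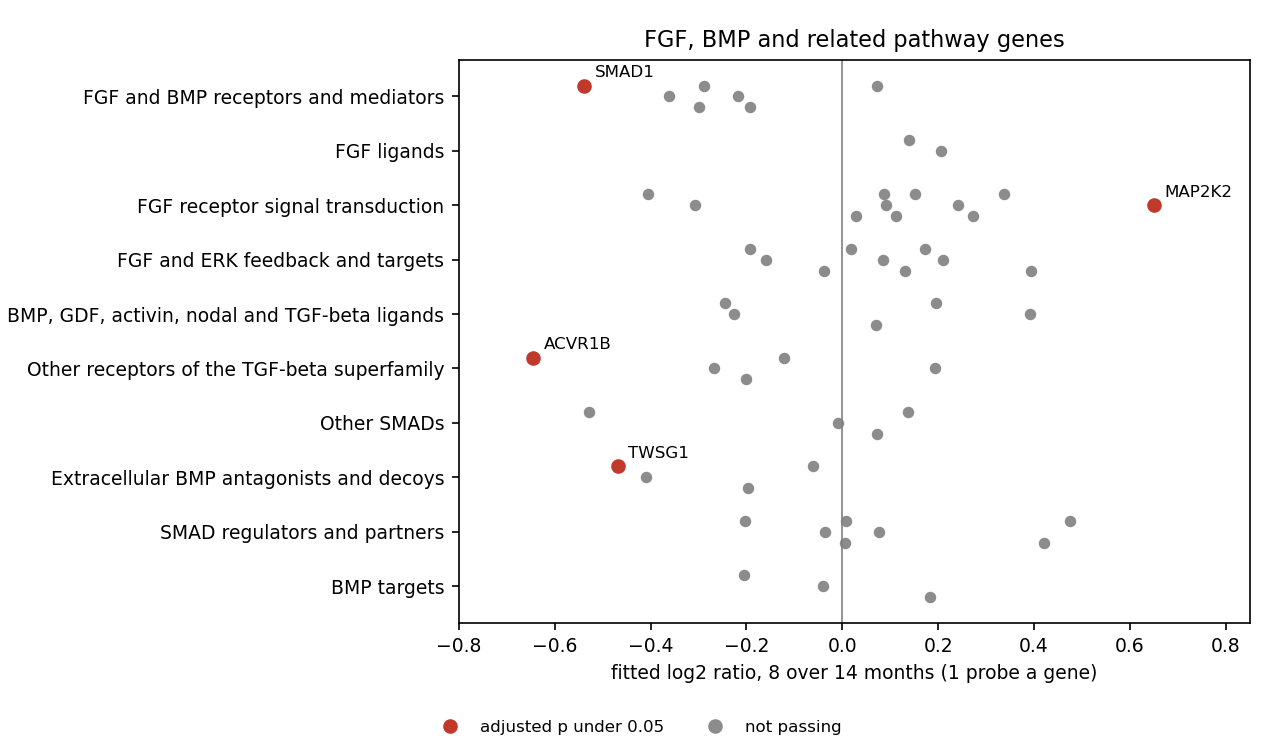
Fitted log2 ratio of 8 over 14 months (horizontal axis), 1 point for each tested gene, by list, with genes past an adjusted p of 0.05 in red and named. MAP2K2 lies at 0.65, and ACVR1B, SMAD1 and TWSG1 lie at -0.65, -0.54 and -0.47.

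The genes most like FGFR2 and BMP4 over the 4 arrays were ranked by the root mean square difference of their 4 log2 ratios. Closest to FGFR2 were the RNA helicase gene DHX32 at 0.021, the bromodomain gene BRPF3 at 0.043 and the chromatin remodeller gene CHD1L at 0.044. Closest to BMP4 were PGM5 at 0.0624, TRIM27 at 0.0842 and WHAMM at 0.0852. Each likeness rests on 4 values.

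Markers of the lineages in which these receptors act were set beside the members. Inner cell mass and epiblast markers passed in 0 of 7 tested, with POU5F1 at 0.20 ± 0.11, NANOG at 0.09 ± 0.15 and SOX2 at 0.05 ± 0.12. SALL4 was at 0.0052 and DPPA3 at -0.04. In heifers 1 and 2 the mean was -0.55 for SALL4, 0.63 for NANOG, -0.15 for POU5F1, -0.31 for DPPA3 and -0.09 for SOX2. In heifers 3 and 4 these means had the opposite sign, at 0.56, -0.46, 0.55, 0.23 and 0.19. ESRRB and LIN28A were above 0 in both pairs. The lowest p of that list were those of ESRRB at 0.55 ± 0.14 (limma's adjusted p = 0.0554) and LIN28A at 0.50 ± 0.15 (adjusted p = 0.0829). Primitive endoderm markers, the lineage that FGF signalling serves in the mouse, passed in 0 of 4 tested. GATA4 at -0.22 ± 0.10 (adjusted p = 0.196) and RSPO3 at -0.16 ± 0.10 (adjusted p = 0.348) were below 0. HNF4A at 0.07 ± 0.13 and PDGFRA at 0.0073 ± 0.11 were above it. RSPO3 was at -0.55 in heifers 1 and 2 and 0.24 in heifers 3 and 4, and PDGFRA at 0.20 and -0.18. A second, less bright HNF4A probe (EMBV3_09103) was at -0.31 ± 0.12, with 3 heifers below 0 (adjusted p = 0.173 across probes). GATA6 was not found among the probe symbols. Of 11 trophectoderm markers 2 were higher, GATA2 at 0.61 ± 0.10 and TEAD4 at 0.56 ± 0.10, and DAB2 was lower at -0.82 ± 0.10 (adjusted p of 0.03, 0.0339 and 0.03). Of all tested genes 4.57% passed. TKDP1, a trophoblast Kunitz domain gene, was at -0.80 ± 0.24 with all 4 heifers below 0 and did not pass (adjusted p = 0.0868). KRT8 was at -0.30, with its 14-month spots saturated in heifers 3 and 4, and PAG2 at -0.23, GATA3 at -0.08, ELF5 at 0.25, TFAP2C at 0.24, KRT18 at 0.17 and CDX2 at 0.16, and none of these passed. Leaving out heifer 1, 2 or 3 ended each of the 3 calls (adjusted p of 0.0569 to 0.231), and with median centring GATA2 was at 0.21 and TEAD4 at 0.33, neither passing. With the mean of its probes DAB2 was at -0.39 and did not pass. KRT18 was at 0.68 in heifers 1 and 2 and -0.33 in heifers 3 and 4. In the same order PAG2 was at 0.14 and -0.60, and GATA3 at -0.22 and 0.07. ELF5 was above background in 4 samples at 8 months and 1 at 14 months. Other tested TFAP2C probes were at -0.06 and 0.57. The part of lineage composition in the members' ratios was not tested.

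Signal of other cells was read from fixed marker lists. Of the cumulus and granulosa markers, FSHR, AMH, FOXL2, TNFAIP6 and VCAN were above background in no sample, and 0 of 5 tested passed. CYP11A1, HSD3B1, STAR and SERPINE2 were above background in all 8 samples. HSD3B1 was at -0.70 ± 0.23 (limma's adjusted p = 0.0991) and SERPINE2 at 0.25 ± 0.11 (adjusted p = 0.176), with CYP19A1 at -0.18, STAR at -0.10 and CYP11A1 at 0.17, and the summed normalised intensity of the list was 7800 to 15600 at 8 months and 6930 to 10500 at 14 months. Of the oocyte markers, GDF9, BMP15, ZP4, NLRP5 and ZAR1 were above background in no sample, and 0 of 3 tested passed (OOEP at 0.20, MOS at 0.20 and ZP3 at -0.15). Sperm markers passed in 0 of 3 tested, with TNP1 at -0.20 and TNP2 at -0.03. PRM1 was above background in no 8-month sample, so its 8-month level was not measured. The fitted ratio between its signals was -0.31 ± 0.10 (adjusted p = 0.107), with heifer 4 at 0.02. Blood cell markers passed in 0 of 3 tested, with PTPRC at 0.31, CD3E at 0.06 and HBA at 0.0050, and PTPRC and HBA were above background in all 8 samples.

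**Figure D5:**
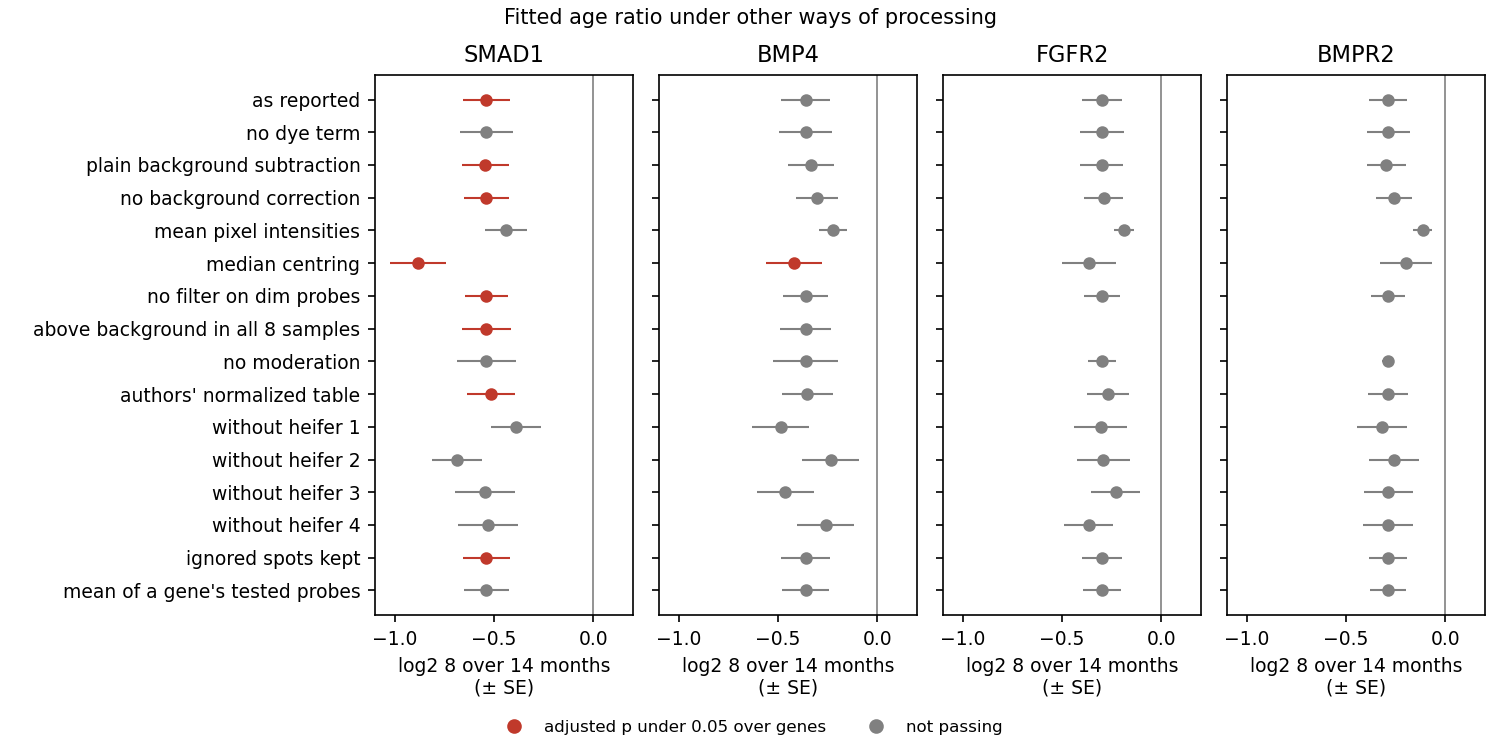
Fitted log2 ratio of 8 over 14 months with its SE (horizontal axes) of SMAD1, BMP4, FGFR2 and BMPR2 in the fit across genes, as reported and under each alternative (rows), in red where the adjusted p was under 0.05; no point is drawn where the filter left the gene out. All points lie below 0, those of SMAD1 from -0.88 with median centring to -0.39 without heifer 1, and BMP4 is red with median centring alone.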

How the data were processed

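The authors deposited 1 scanner table per array, whose foreground and background intensity values are on a linear scale and not normalised, per the file headers. No source used here names the image software. Another deposited table holds the authors' normalised log2 ratios. Set against the scanner ratios it read Cy5 over Cy3 on each array (r = 0.985 to 0.997 across probes, slopes 0.976 to 1.02, column medians -0.00937 to 0.00364). The same values in the series' value table have the sign turned for heifers 3 and 4, so that it reads 8 over 14 months. It was used as an alternative.

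With limma 3.58.1 in R 4.3.3, median foreground and background were corrected with normexp (offset 50) and normalised by loess within each array, with control spots at weight 0 and spots the scanner table marks as ignored (32 to 166 per array) left out. Levels are log2 intensities after loess and Aquantile scaling. The fit had an age coefficient and a dye term, with 2 residual degrees of freedom, and p-values were adjusted by Benjamini-Hochberg over all tested probes, and apart from that over 1 probe per gene (the brightest tested). Fitted values in the text are those over genes for the probe that stands for a gene and those over probes otherwise. Where no sample of an age exceeded background, the level there was not measured, and no fold is given. Scripts were tested on simulated data.

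Platform symbols named 21790 probes with 1 gene each and 22004 with none. By RefSeq's gene table the symbol of 20025 of these probes was current, that of 1524 was updated, and that of 241 was kept as the platform gives it. The 4 arrays shared 1 slide, which leaves no slide batch to test. Precision is limited by the number of arrays, each of a separate animal.

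The text names all members, and of each other list every gene that passed and the 2 with the smallest p, plus the lineage markers CDX2, KRT8, KRT18, GATA3, POU5F1, NANOG, SOX2, GATA4 and GATA6 and the 3 genes most like FGFR2 and BMP4. FGF4, FGF2, the ID genes, the second HNF4A and BAMBI probes and the other TFAP2C probes are named with their values already known. So are the markers at background, the other tested markers and the means by pair of heifers of list genes. Members and lists were chosen with earlier results of these data known.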

Additional observations from a re-analysis of the deposited data

How the results depend on the processing

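Of the 15 alternatives, 1 (keeping the ignored spots) was chosen after seeing the data. The count over all probes was 382. It was 0 in limma without the dye term, with plain background subtraction, with no background correction, with mean pixel intensities and without moderation of the variances (unadjusted p under 0.05 in 3152, 4585, 4507, 4599 and 2787 probes), 3473 with median centring (84 higher, 3389 lower), 1124 with no filter on dim probes and 246 with probes above background in all samples. Leaving out each heifer gave 0 to 1176. The count over genes was 383. It was 0 in limma without the dye term, with mean pixel intensities and without moderation (unadjusted p under 0.05 in 1543, 2262 and 1265 genes), 2073 with median centring and 214 with the mean of a gene's probes, and leaving out each heifer gave 0 to 342 (0 without heifer 1 or 2, 2 without heifer 3). Of member probes, 2 passed with median centring (SMAD1 and BMPR1A) and 1 with no filter (SMAD1). Of member genes, 0 passed without the dye term, with mean pixel intensities, without moderation, with the mean of a gene's probes and with any heifer left out, and 3 with median centring (SMAD1, BMP4 and BMPR1A). SMAD1 kept its sign in all 15 and passed in 7, with adjusted p from 0.000911 to 0.337. MAP2K2 passed in 7, ACVR1B in 9 and TWSG1 in 8. Median centring turned the sign of SMAD4 (-0.071), SPRY2 (-0.0055), SERPINE2 (-0.12), KRT18 (-0.28), POU5F1 (-0.17), NANOG (-0.22) and SOX2 (-0.11), and the mean of a gene's probes that of SMAD4 (-0.00046). With each heifer left out, GATA3 ran from -0.16 to 0.0058, NANOG from -0.094 to 0.27 and SOX2 from -0.10 to 0.20. The causes were not tested. Median centring moved the median of all tested probes to -0.14. Every fit was paired by animal, since each array gives the ratio within 1 heifer, and no further replicate block could be fitted because the 2 orientation groups share no replicate number. Members near the background limit are limited by signal over background.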
